A study of Mus musculus with 2 samples.

Results

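The AP-1 transcription factors comprised 10 genes on the arrays, namely Fos, Fosb, Fosl1 and Fosl2 of the Fos family, Jun, Junb and Jund of the Jun family, Batf and Batf3 of the Batf family, and Atf3. They were found by their gene names among the spots that are not controls, and every probe of each gene was read, which gave 11 probes on 29 spots out of 30153 genes and 43020 spots. The family was chosen from these same array values with earlier results known, so its levels and differences are a description with no test. RNA of 2 samples was hybridised, each to 1 Agilent 1-colour mouse array. The MH sample held mature hepatocytes of healthy liver, purified on a Percoll gradient, and the Sox9+EpCAM- sample held GFP+EpCAM- cells collected by FACS from the livers of Sox9-EGFP mice given a diet with DDC, a compound that injures the bile ducts. The methods of the study describe both as cells of Sox9-EGFP mice freed by collagenase perfusion, in which GFP marks cells with an active Sox9 gene. The labels call both samples male. Age and the number of mice behind each array are not given in the sources used here, and the study states a diet of some weeks for cells sorted in this way for its PCR, without saying so of the arrays. Isolation by sorting and the DDC diet differ together between the arrays and cannot be told apart, and with 1 array per group no value has an SD between animals or a test.

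AP-1 is a dimer of basic leucine zipper (bZIP) proteins. A Fos protein needs a Jun protein as its partner to bind DNA, whereas Jun proteins also pair with each other, and ATF and BATF proteins join Jun proteins in further dimers. Fos, Jun and their close relatives are textbook immediate early genes, transcribed soon after growth factors, stress or tissue handling activate MAP kinases, and in the liver they are known for the first hours after partial hepatectomy and for injury. Release of cells by collagenase is also known to raise them.

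Of the 43020 spots, the scanner software marked 27523 as well above background for MHs and 32158 for Sox9+EpCAM- cells, and 0 as saturated. The 75th percentile of the intensity was 741 for MHs and 1110 for Sox9+EpCAM- cells. All folds and log2 differences below are Sox9+EpCAM- over MH after division by that percentile, so they are smaller than the ratio of the intensities printed beside them. The labels were checked against markers. Xist, the RNA of the inactive X chromosome, read 1940 for MHs and 16.1, which was not well above background, for Sox9+EpCAM- cells, and the 4 Y-linked genes read (Ddx3y, Kdm5d, Eif2s3y and Uty) were measured in Sox9+EpCAM- cells only, so the MH array does not match its label of male. These genes thus differ between the arrays along with diet and isolation, and a difference in the sex of the mice cannot be told apart from either. Albumin (Alb) was 207000 in MHs and 170000 in Sox9+EpCAM- cells, and the hepatocyte factor Hnf4a was 4990 and 6360. After scaling, both were lower in Sox9+EpCAM- cells, with log2 differences of -0.87 and -0.23. Sox9 itself read 8.52, not well above background, in MHs and 60.2 in Sox9+EpCAM- cells, a bound of at least 1.45-fold higher. Epcam, the marker the sort selected against, was 139 and 2770, 13.3-fold higher in the Sox9+EpCAM- cells.

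Of the 10 members, 7 were well above background on both arrays, Fosl1 and Batf3 in Sox9+EpCAM- cells only and Batf in neither sample. A difference could be given for 8 of them, and all 8 were higher in Sox9+EpCAM- cells than in MHs. The median log2 difference was 4.58, a 24.0-fold higher level, with the bound of Fosl1 included, while the median over all genes with bounds included was -0.12. Over genes measured on both arrays alone, the median was 4.56 for the members and -0.19 for all 19235 genes. At least 4-fold higher were 7 members and at least 4-fold lower were 0, where 5.59% of the 23417 genes well above background on at least 1 array, some of which, like Batf3, have no difference to give, were at least 4-fold higher and 5.57% at least 4-fold lower. At 2-fold 8 members were higher (14.2% of all genes), and at 10-fold 5 members were (1.55%). As these differences belong to the contrast that chose the members, nothing is read from the counts against these shares. In bulk RNA, more cells that express a gene and more of its RNA per cell cannot be told apart.

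**Figure D1:**
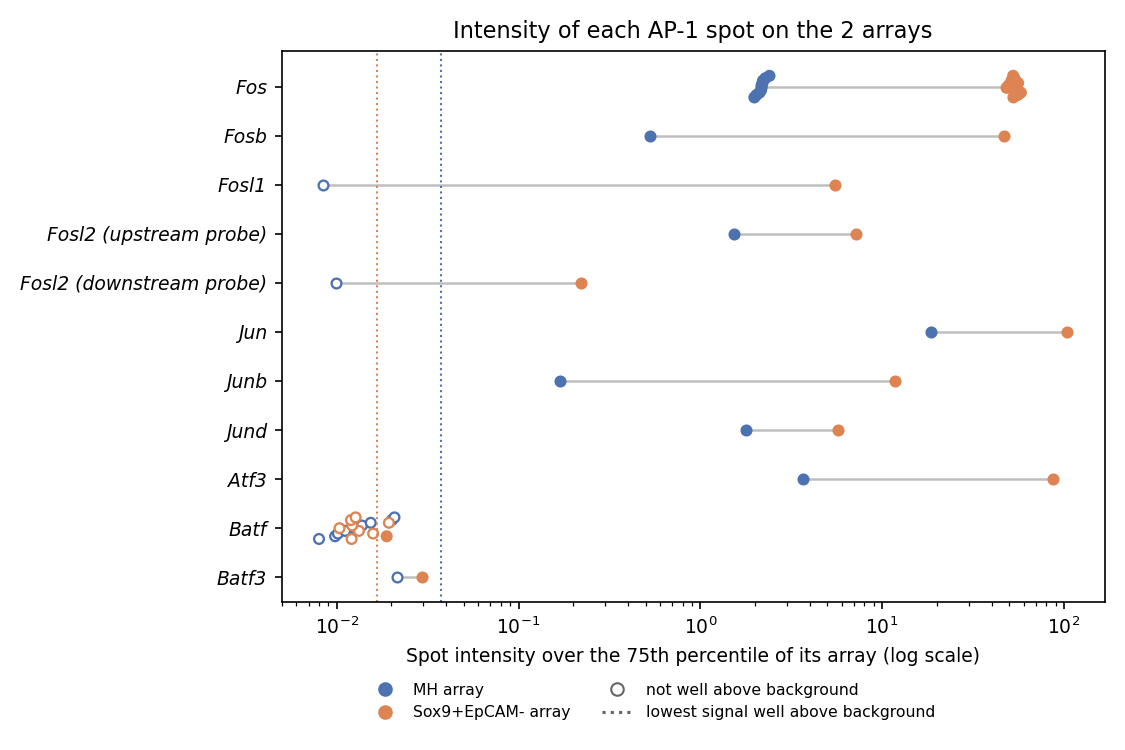
Intensity of each AP-1 spot divided by the 75th percentile of its array (x axis, log scale, no unit), 1 row per probe, with the MH array in blue and the Sox9+EpCAM- array in orange; open circles are spots not well above background and dotted lines mark the lowest signal well above background on each array. The arrays stand apart in every row except those of Batf, where spots overlap, and Batf3, and rows should not be set against each other since each probe has its own response.

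Among the Fos family, which supplies the partner that cannot bind DNA on its own, all 4 genes were higher by 4-fold or more in Sox9+EpCAM- cells, with a median log2 difference of 5.53. Fos, the founding member and a classic immediate early gene, was printed on 10 spots of a single probe (mm9 chr12:86817900-86817959, plus strand). Its intensity ran from 1470 to 1780 with a median of 1610 in MHs, and from 53700 to 64400 with a median of 58700 in Sox9+EpCAM- cells. Values of the samples did not overlap, every spot of Sox9+EpCAM- cells being the higher, and the mean was 1611 ± 86.9 against 58950 ± 3239 (SD over the 10 spots of an array, which covers the array only). Fos was thus 24.4-fold higher, a log2 difference of 4.61 ± 0.11, rank 30 of the 19235 genes measured on both arrays.

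Fosb, which is induced like Fos and also gives the truncated ΔFosB protein, read 393 in MHs and 51800 in Sox9+EpCAM- cells (mm9 chr7:19888168-19888227, minus strand). The log2 difference of 6.46 ± 0.21, or 88.0-fold, was rank 6 of the 19235 genes measured on both arrays. The error of a probe with a single spot is that of the scanner software, and covers neither the labelling nor the animals.

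Fosl1 codes for Fra-1, a Fos protein without a strong activation domain of its own that is commonly induced later than Fos. Its probe (mm9 chr19:5455496-5455555, plus strand) read 6.20 in MHs, not well above background, and 6120 in Sox9+EpCAM- cells. Against the lowest MH signal that was well above background, 27.8, Fosl1 was at least 147-fold higher, a log2 difference of at least 7.20. This bound depends on the background correction, and with normexp, which adds an offset to low signals, the log2 difference was 5.58.

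Fosl2 codes for Fra-2 and had a pair of probes that lie 4.988 kb apart on the plus strand of mm9 chromosome 5. The upstream probe (chr5:32455088-32455147) read 1140 in MHs and 7990 in Sox9+EpCAM- cells, 4.68-fold higher with a log2 difference of 2.23 ± 0.20. The downstream probe (chr5:32460076-32460135) read 7.33, not well above background, in MHs and 246 in Sox9+EpCAM- cells, which was at least 5.91-fold higher. Both probes were thus higher in Sox9+EpCAM- cells, and only the upstream one was measured in MHs. Their sequences are shown because they read different parts of the transcript of the same gene. The upstream probe is given whole and the downstream probe by its first 30 bases, 5′ to 3′, and no capitals are used.
Fosl2 upstream probe: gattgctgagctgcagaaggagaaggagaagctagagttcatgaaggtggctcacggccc
Fosl2 downstream probe, first 30 bases: gctatggaggaaagaacatattaaaaactt

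The Jun family holds the partners that every Fos protein needs. Its 3 genes were all measured on both arrays, and their differences ran from 1.67 to 6.12 on the log2 scale with a median of 2.49. Jun, the founding member and a main target of the JNK kinases at the protein level, read 13800 in MHs and 116000 in Sox9+EpCAM- cells (mm9 chr4:94716928-94716987, minus strand). This was 5.61-fold higher, a log2 difference of 2.49 ± 0.20. In MHs the Jun probe already stood at 18.6 times the 75th percentile of the array.

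Junb, whose protein activates fewer targets than Jun and can restrain it, read 125 in MHs and 13000 in Sox9+EpCAM- cells (mm9 chr8:87501881-87501940, minus strand). It was 69.4-fold higher, with a log2 difference of 6.12 ± 0.22 and rank 9 of the genes measured on both arrays. Jund, the member known for steady expression in resting cells, read 1330 in MHs and 6320 in Sox9+EpCAM- cells (mm9 chr8:73224436-73224495, plus strand). Its log2 difference was 1.67 ± 0.20, or 3.17-fold, the smallest of the 8 and the one member with a difference that did not reach 4-fold. Junb and Jund lie on the same chromosome, with their probes 14277 kb apart.

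Atf3, a stress-induced bZIP factor that pairs with Jun proteins and represses many genes as a homodimer, read 2730 in MHs and 96300 in Sox9+EpCAM- cells (mm9 chr1:192994547-192994606, minus strand). The log2 difference was 4.56 ± 0.20, or 23.5-fold, and rank 32 of the genes measured on both arrays.

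The Batf family codes for small proteins that pair with Jun proteins in place of Fos and are known from lymphocytes and dendritic cells. Batf was printed on 10 spots (mm9 chr12:87049872-87049929, plus strand), of which 1 was left out as an outlier on the MH array. On the other 9 the intensity ran from 5.92 to 15.4 with a median of 9.30 in MHs and from 11.5 to 21.5 with a median of 14.1 in Sox9+EpCAM- cells. The ranges overlapped, 0 of 9 and 1 of 9 spots were well above background, and no difference is given. Batf3 (mm9 chr1:192932528-192932587, plus strand) read 16.0 in MHs, not well above background, and 32.5 in Sox9+EpCAM- cells, well above it. Since the floor of the MH array exceeds this level after scaling, no fold is given, and a difference was not detectable at this signal. The markers of leukocytes were lower as a list, as given below with the other cell types.

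The probes of Fos and Batf lie 232 kb apart on chromosome 12, and those of Atf3 and Batf3 lie 62.0 kb apart on chromosome 1, and in each pair the first gene was among the 32 largest measured differences while the signal of the other was too low for a difference to be given.

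**Figure D2:**
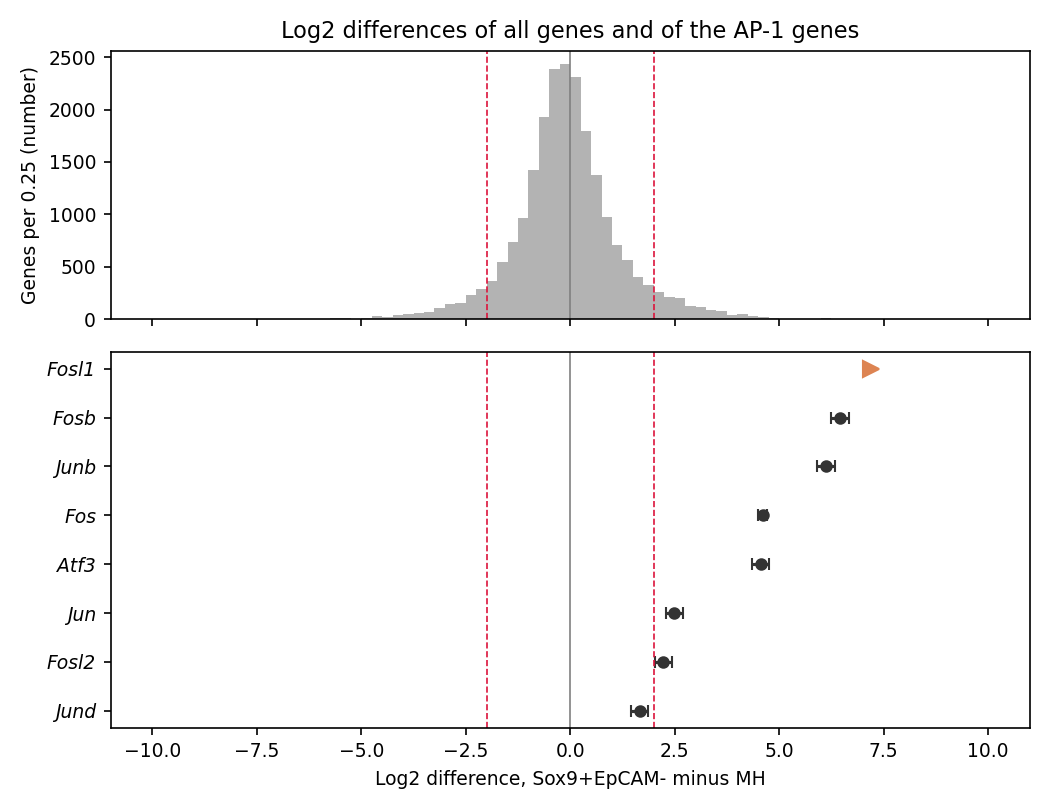
Log2 difference, Sox9+EpCAM- minus MH (x axis), for all genes with a difference or bound as a histogram in steps of 0.25 (upper panel, number of genes) and for the 8 AP-1 genes with a difference (lower panel). Points are measured on both arrays with the error of the array as bars, the triangle for Fosl1 is a lower bound, and dashed lines mark 4-fold; 7 members lie right of 4-fold and Jund, at 1.67, left of it.

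By the size of the difference, Fosb and Junb came first among the members measured on both arrays, and the gap between them, 0.34, was just over their combined error of 0.30. Fos and Atf3 followed 1.51 below Junb and differed from each other by 0.05, less than their combined error of 0.23. Jun lay 2.07 below Atf3, and its gap of 0.26 to Fosl2 was under the combined error of 0.29, while Fosl2 stood 0.56 above Jund, larger than the combined error of 0.29. The error of Fos is an SD over its spots and that of each other member is from the scanner software, so gaps with Fos mix unlike errors. These errors cover the arrays and not the animals, so the order describes the 2 samples and a gap over its error does not settle it.

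Promoter sequences from RefSeq were available for 9 of the 10 members, not for Fosl1, as 250 bases before to 50 after the start of the gene on GRCm38.p6. Each was searched on both strands for the AP-1 site TGANTCA, the CRE-like site TGACNTCA, the core CRE motif TGACGT (part of the CRE-like site where N is G) and the CArG box, the element bound by serum response factor, and on the strand of the gene for TATAAA. The core motif stood in 3 members (Fos, Batf and Atf3), where 7.51% of 32851 promoters held it. The CRE-like site stood in 1 member (Jun), where 8.83% did. Within this window the AP-1 site and the CArG box stood in 0 members and in 7.81% and 1.63% of all promoters. Sequence further from the start was not searched, so a site there would be missed. TATAAA stood in 2 members (Fos and Junb) and in 8.32%. The 4 promoters with a CRE match are shown over the 120 bases before the start, 5′ to 3′ on the strand of the gene, with matches in capitals.
Fos, GRCm38.p6 chr12:85473770-85473889, plus strand: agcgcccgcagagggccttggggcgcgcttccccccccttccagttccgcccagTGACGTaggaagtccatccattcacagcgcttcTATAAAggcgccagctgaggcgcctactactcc
Jun, GRCm38.p6 chr4:95052223-95052342, minus strand: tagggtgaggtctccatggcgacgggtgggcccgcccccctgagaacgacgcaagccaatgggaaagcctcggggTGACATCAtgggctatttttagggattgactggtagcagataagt
Atf3, GRCm38.p6 chr1:191183334-191183453, minus strand: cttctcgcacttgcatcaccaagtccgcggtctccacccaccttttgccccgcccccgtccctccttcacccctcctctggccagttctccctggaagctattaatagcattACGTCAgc
Batf, GRCm38.p6 chr12:85686600-85686719, plus strand: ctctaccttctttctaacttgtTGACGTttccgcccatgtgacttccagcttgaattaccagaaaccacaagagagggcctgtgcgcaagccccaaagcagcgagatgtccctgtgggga

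In Fos the core CRE motif lay at -66 to -61 from the start and TATAAA at -33 to -28. In Junb TATAAA lay at 1 to 6, from the first base of the gene on and not before it. The site of Jun lay at -45 to -38, that of Atf3, read on the other strand as ACGTCA, at -8 to -3, and that of Batf at -98 to -93. A match of letters describes the window only and does not show binding.

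The other 31 bZIP genes read, which share the fold of the DNA-binding domain, were spread on both sides of 0. Of them 3 were at least 4-fold higher, against the 5.59% of all genes, and their median log2 difference was 0.11, or -0.07 with the deposited table and -0.01 over the genes measured on both arrays alone. Mafk, a small Maf partner of Nrf2 and Bach1, went from 176 to 2130 (3.01 on the log2 scale). Ddit3, the stress factor CHOP, went from 3130 to 30300 (2.69), and Atf4, which acts upstream of it, from 538 to 3100 (1.94). Cebpd, an acute phase factor, read 5.63, not well above background, in MHs and 363 in Sox9+EpCAM- cells, at least 8.72-fold higher. At the other end, Hlf went from 1080 to 636 (-1.35) and the hepatocyte factor Cebpa from 10900 to 6660 (-1.29). The closest relatives of the members, picked after their values were seen, stayed near the centre, with Jdp2 at 143 and 231 (0.11) and Batf2 at 79.9 and 92.3 (-0.37).

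The kinases and factors that act upstream of Fos and Jun were as many higher as lower, 14 each. Of 30 genes, 28 had a difference, 2 of them at least 4-fold higher and 1 at least 4-fold lower, where 5.59% and 5.57% of all genes were. The median of the list was -0.02, which turned positive under 4 alternatives (0.12 to 0.31). Srf, the factor that binds the CArG box, went from 1380 to 12400 (2.58), Mapk13 from 113 to 789 (2.22) and Rps6ka3, the kinase RSK2, from 263 to 1160 (1.56). The lowest were Mapk14, the p38α kinase, from 2570 to 758 (-2.34), Map3k11 from 1280 to 503 (-1.93) and Map3k7, the kinase TAK1, from 5110 to 3470 (-1.14). The probes of some of these genes disagreed, as another Mapk14 probe stood at 1.24 and another Map3k7 probe at 0.41. These are RNA levels and say nothing of kinase activity.

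Among 26 textbook AP-1 target genes, 19 had a difference and 5 were not well above background on either array. Beside 5.59% and 5.57% of all genes, 6 of the targets were at least 4-fold higher and 0 at least 4-fold lower. Their median was 1.15 with the brightest probe of each gene, 1.86 with the median over its probes and 1.89 with the probe of the largest difference. Spp1, osteopontin, went from 258 to 47000 (6.93), the growth factor Hbegf from 151 to 5590 (4.63) and the heme-degrading enzyme Hmox1 from 1420 to 49400 (4.54). Areg, another ligand of the EGF receptor, read 5.73, not well above background, in MHs and 5310 in Sox9+EpCAM- cells, at least 128-fold higher. The lowest were Mmp13, at 63.9 and 53.2 (-0.85), the cyclin Ccnd1, at 6440 and 5580 (-0.79), and Cd44, at 4190 and 4990 (-0.33). The value of Cd44 depends on the probe, since its other probes were higher in Sox9+EpCAM- cells, from 1870 to 5240 (0.90), from 41.5 to 984 (3.98), and, for a probe not measured in MHs, 5.76 against 811 (a bound of 4.28), so no direction is given for it. Several of these genes also have other regulators, and Spp1 is a marker of bile duct cells as well.

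Genes known to respond to cell isolation and stress were higher along with the members. Of 19 such genes, 15 were at least 4-fold higher and 0 at least 4-fold lower, where 5.59% and 5.57% of all genes were. The median of the list was 3.92, beside 4.58 for the AP-1 genes. It was 3.16 with normexp background correction and 3.34 over the genes measured on both arrays alone, where the AP-1 median was 4.56 each time. Ier3 went from 47.0 to 11000 (7.29), Myc from 350 to 32900 (5.97) and Ier5 from 53.6 to 3370 (5.39), and Egr2, Klf2 and Klf4, not well above background in MHs, were at least 49.5-fold, 25.2-fold and 15.2-fold higher. The lowest were the chaperone gene Hsph1, from 7870 to 3190 (-1.89), the phosphatase Dusp1, from 3710 to 8450 (0.60), and the chaperone gene Dnajb1, from 517 to 1720 (1.15). The part of isolation in the AP-1 differences was not tested. Of 15 housekeeping genes, 1 was at least 4-fold higher (Tfrc, 2.38) and 0 at least 4-fold lower, and their median was 0.01, with the lowest, Sdha, at -1.52.

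Markers of other cell types also moved with the arrays. Levels were summed over each list after division by the 75th percentile of the array. Over all genes, 5.59% were at least 4-fold higher and 5.57% at least 4-fold lower. The fibroblast and stellate sum was 12.2 for MHs and 54.4 for Sox9+EpCAM- cells (1.28 and 40.9 without Dcn), where 9 of 10 markers had a difference and all of these were higher, 6 at least 4-fold (Col1a1 from 82.6 to 2630), and the other marker was not well above background on either array. The cholangiocyte sum was 2.28 and 55.8 (1.93 and 13.5 without Spp1), with 6 of 8 markers higher and 3 at least 4-fold. The leukocyte sum was 151 and 79.0, of which Itgam supplied 124 and 76.3, and 26.5 and 2.68 without it, with all 11 markers that had a difference lower and 6 at least 4-fold (Cd74 from 9340 to 1670), as read by the brightest probe of each gene. The 3 Itgam probes ran from -0.70 to 0.37 and so disagreed in sign, and Ptprc, the pan-leukocyte marker CD45, was near level at 195 and 248 (-0.24). The endothelial sum was 8.59 and 2.51, with 7 of 8 markers lower and 4 at least 4-fold. All 10 hepatocyte markers were lower, 4 at least 4-fold, and their sum was 1240 and 507. The part of these cells in the AP-1 differences was not tested.

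**Figure D3:**
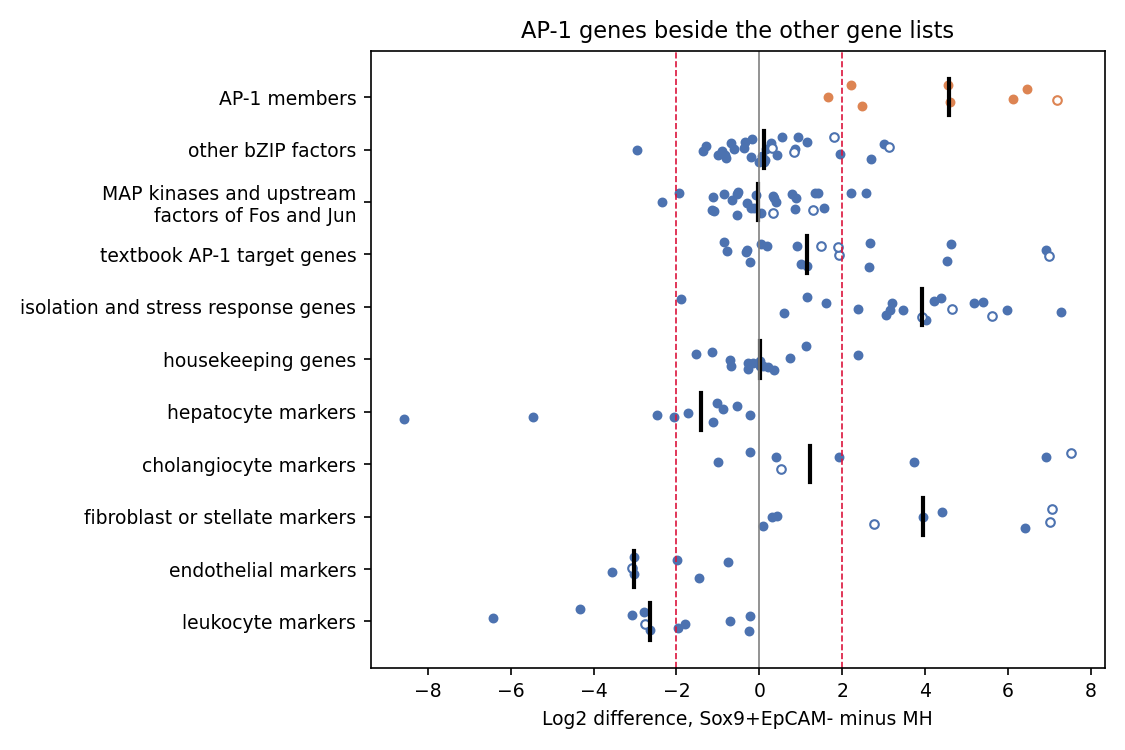
Log2 difference, Sox9+EpCAM- minus MH (x axis), for each gene with a difference in the AP-1 family (orange) and in 10 other lists (blue), with the median of each list as a black bar, bounds as open circles and 4-fold as dashed lines. The AP-1 median of 4.58 and the isolation and stress median of 3.92 lie on the higher side, the other bZIP factors (0.11) and the MAP kinase list (-0.02) near 0, where both change sign under some alternatives.

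The size of most AP-1 differences depended little on the processing. Under 10 settings, which change the background correction, the scaling, the choice of probe, the outlier spots, the bound or the genes kept, the log2 difference of Fos ran from 4.43 to 4.93, Fosb from 6.27 to 6.73, Junb from 5.58 to 6.38, Atf3 from 4.38 to 4.97, Jun from 2.31 to 3.02 and Fosl2 from 2.05 to 2.56, all at least 4-fold higher in each. Jund ran from 1.49 to 1.93 and stayed under 4-fold in all 10 settings. Fosl1, under 9 settings, ran from 5.58 to 9.36, both ends set by how its MH signal near background was treated. Scaling to Gapdh shifted the median difference over all genes measured by 0.27 and changed the split of all genes at least 4-fold apart from 1309 higher and 1304 lower to 1650 higher and 1006 lower.

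**Figure D4:**
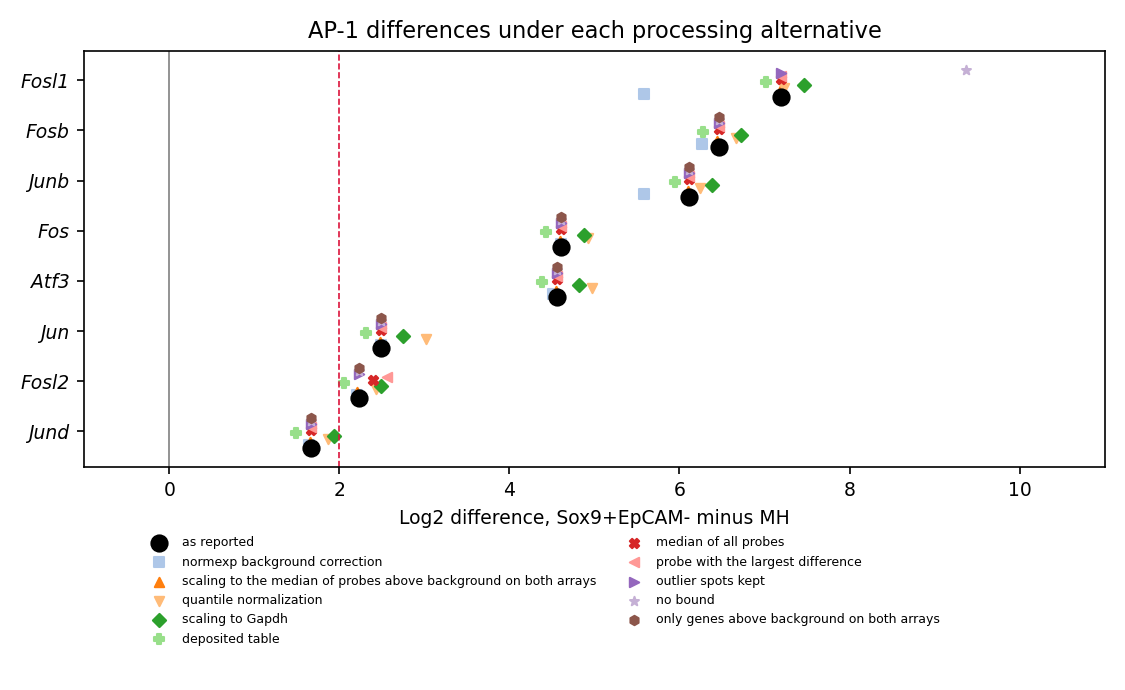
Log2 difference, Sox9+EpCAM- minus MH (x axis), of the 8 AP-1 genes with a difference under the reported setting (black circles) and each alternative (coloured symbols), with 4-fold as a dashed line. The symbols of a gene lie close together except for Fosl1, and those of Jund stay left of the line.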

How the data were processed

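Per the labels, total RNA was extracted with a column kit and labelled with Cy3 by a service provider. The deposited scanner files hold the intensity of every spot from Feature Extraction 10.7.3.1, background-subtracted but not normalized between arrays, with the local background, error and spot flags. They also deposited a table of ratio values, which equal the intensity divided by the array median (SD of the log2 factor 0.0018). Probe coordinates are those of the design, on mm9, and exons of that build were not used here.

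Control spots and outlier spots of either array were left out, spots of a probe averaged on the log2 scale, and intensities divided by the 75th percentile of the array, which left 39390 probes. A probe was well above background when at least 0.5 of its spots were so flagged. A gene was read by its brightest probe (mean over both arrays), and where 1 array did not measure it the fold is a bound, taken against that array's lowest well-measured signal, or against the probe's signal if higher. The rule of size was 4-fold, and a value that changed by over 1.5-fold was called moved. Over 262 and 297 probes printed at least 8 times the median spot SD was 0.08 on the log2 scale on each array. The 11 AP-1 probes shared no 20 bases with a probe of another gene. The members and gene lists were chosen with earlier results of these data known. From each other list the 3 highest and 3 lowest genes measured on both arrays and bounds of at least 4-fold are named, except for an item not reported here; markers named beside a list were picked after their values were seen. Alternatives included normexp (offset 50, limma 3.58.1, R 4.3.3), and the rest used pandas 2.3.3 and numpy 2.4.6 under Python 3.11.15.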

Additional observations from a re-analysis of the deposited data

How the results depend on the processing

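No AP-1 gene changed direction under any alternative run. Medians near 0 did: that of the other bZIP factors (0.11) was -0.07 with the deposited table and -0.01 over genes measured in both samples, and that of the MAP kinase list (-0.02) was 0.12 with quantile normalization, 0.25 scaled to Gapdh, 0.22 with the median of all probes and 0.31 with the probe of the largest difference. With normexp background correction the log2 difference of Fosl1 was 5.58, the genes at least 4-fold higher were 612 and lower 660, and the median of the isolation and stress genes was 3.16. Without the bound Fosl1 was 9.36. With each gene read as the median over its probes, the AP-1 target median was 1.86, and with the probe of the largest difference it was 1.89. With only genes above background on both arrays, 758 genes were at least 4-fold higher and the isolation and stress median was 3.34, since fewer genes enter. At 2-fold 3319 genes were higher and 3918 lower, and at 10-fold 363 and 344. For the other changes the cause was not tested. Another 152 values moved by less than 1.5-fold. The deposited table shifted the median difference over all genes measured by -0.18 (1130 higher, 1563 lower). With 7 AP-1 genes at least 4-fold higher under each scaling, 6 of these remained where Fosl1 was left out for its MH signal. No paired analysis was possible because there is 1 array per group, and for the same reason no array could be left out. The lowest measurable signal, 27.8 for MHs and 18.4 for Sox9+EpCAM- cells, limits Fosl1, Batf and Batf3.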

Other observations

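The genes of the family are compact. From its first to its last base, introns included, Junb spans 1.84 kb, Jund 2.88 kb, Jun 3.19 kb and Fos 3.38 kb on GRCm38.p6, where the median of 21896 protein-coding genes in the RefSeq table is 17.1 kb. Fosb spans 7.42 kb, Fosl1 8.24 kb, Batf3 10.5 kb and Atf3 13.0 kb. Only Fosl2, at 21.4 kb, and Batf, at 22.4 kb, exceed that median among the 10 members. Short spans are found both in Junb, with a log2 difference of 6.12, and in Jund, with 1.67.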
